A study of Rattus norvegicus with 12 samples.

Results

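Among the genes measured by several probe sets on the Affymetrix rat array, 35 had one probe set that was higher and another that was lower in Tumor cells than in A16 cells. F111 is a fibroblast line from the Fischer rat. The A16 group is F111 cells plated on plastic for 16 h. The Tumor group is cells taken into culture from tumours that formed in nude mice after F111 cells held in suspension for 16 h had been injected under the skin, and the labels place this sample 3 months after injection. By the labels the medium was the same in both groups, but the methods of the study had tumour explants in richer serum, so serum may differ between them. Neither source says whether mouse cells of the host were removed from the explants, or how many animals gave the tumours. Each group had 3 arrays: biological replicate 1 (also technical replicate 1 in the labels), biological replicate 2, and a technical replicate 2 to which the labels give no biological number. The biological replicates are called replicate 1 and replicate 2 below. Both the labels and the study state biological replication, but not whether it means separate cultures, animals or tumours, so the spread between arrays may be partly technical.

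A probe set is a group of short oligonucleotides that together report 1 stretch of a transcript. The labelling starts at the poly(A) tail, so a probe set reads the sequence near a 3′ end better than sequence far from it. Many mammalian genes make transcripts that differ in their last exons, in the poly(A) site they use or in the introns they keep, and 2 probe sets of the same gene can then report different transcripts. Probe sets of a gene can also differ because 1 of them matches a related gene or an unrelated transcript from the same locus. The probe sequences and their positions were not used here.

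For each probe set with a single gene symbol, the difference was the mean log2 RMA intensity of the 3 Tumor arrays minus that of the 3 A16 arrays, RMA being the method that summarised each probe set. A gene was taken when one probe set had a difference of 1 or more, another had -1 or less, and the Tumor and A16 arrays did not overlap in either. The genes were thus chosen by their Tumor minus A16 difference, and for them it is given as a description without a test. On these terms 36 of the 4525 genes with 2 or more probe sets qualified, or 0.796%. Mnda was left out by name, which gave the 35. Itga6 was also to be left out, but it did not qualify with the mean of the 3 arrays. The whole table held 14217 genes with a probe set of their own.

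Array medians lay between 6.62 and 6.65 on the log2 scale. Pearson correlations over probe sets were 0.991 to 0.997 within groups and 0.933 to 0.949 between them. Summed over 11 fibroblast markers, log2 intensity was 16.3 to 16.5 on A16 arrays and 15.7 on all Tumor arrays, with Dcn and Lum below the array median in both groups. Among these markers Col1a1 changed the most, with means of 14.11 in A16 and 10.66 in Tumor, while Vim was at 14.27 and 14.19. All 8 leukocyte markers together gave 10.3 to 10.4 on A16 and 10.7 on Tumor arrays, and Ptprc, Adgre1, Itgam and Cd163 lay below the array median in both. Csf1r, Cd68 and Lyz2 lay below it in A16 and above it in Tumor, Csf1r, a macrophage growth factor receptor, by the most, with means of 5.51 and 8.58. The endothelial sums were 7.38 to 7.53 and 7.71 to 7.99, the epithelial sums 9.80 to 10.00 and 11.09 to 11.24, and the skeletal muscle sums 9.27 to 9.54 and 8.83 to 9.09. Of the 6 epithelial markers, 5 lay below the array median in both groups, and the sum followed Krt8, with means of 9.48 and 10.99. The part of these cell types in the results below was not tested. In bulk RNA, fewer cells of a type and less RNA per cell cannot be told apart.

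The 35 genes had 147 probe sets, 2 to 12 per gene with a median of 4. Of these, 36 were at 1 or more without overlap (called higher below), 47 were at -1 or less without overlap (called lower), and 64 were neither. Over all probe sets with 1 gene symbol, 5.27% were higher and 8.01% lower by the same terms, and over those of genes with 2 or more probe sets 5.61% and 10.6%. Those shares and the members' counts rest on the same contrast, so nothing is read from their difference. Most genes had a single probe set on each side. Sox4 was the only one with 2 higher probe sets, and 7 genes had 2 or more lower ones. The highest difference of each gene had a median of 1.44 and ran from 1.00 (Sp1) to 2.26 (Acot2). The lowest difference had a median of -1.36 and ran from -1.01 (Tcf25) to -2.73 (Dhx36).

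**Figure D1:**
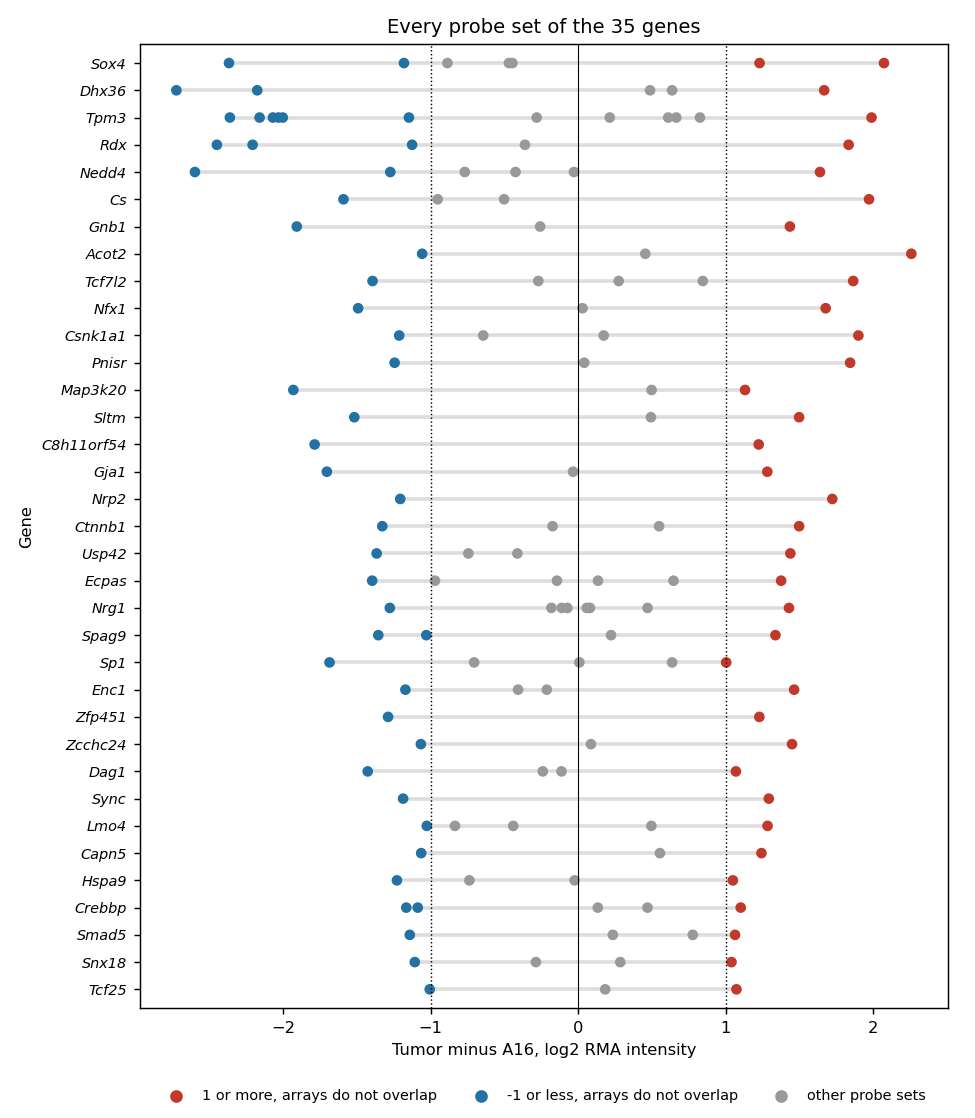
Tumor minus A16 difference in log2 RMA intensity (horizontal axis) of every probe set of the 35 genes (vertical axis, ordered by the distance between highest and lowest). Points are probe sets, red at 1 or more and blue at -1 or less with arrays that do not overlap, grey otherwise; dotted lines mark 1 and -1. Sox4 has the widest distance, 4.44, and Tcf25 the narrowest, 2.08.

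The remaining probe sets of a gene lay between its extremes. Of the 64 that were neither higher nor lower, 32 had a difference above 0 and 32 below, from -0.97 to 0.85. In 24 of the 35 genes the brightest probe set, taken over all arrays, was among these. The brightest was higher in 10 genes and lower in 1, C8h11orf54. Over all genes with 2 or more probe sets the brightest was higher in 6.63% and lower in 6.23%. When all probe sets of a gene were averaged, the mean difference lay between -0.86 (Rdx) and 0.55 (Acot2). The genes were chosen for probe sets of opposite direction, which offset each other in a mean, so nothing is read from these values.

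The genes of the cytoskeleton and of cell contacts held 2 of the widest distances. Rdx encodes radixin, which ties actin filaments to the plasma membrane. Its probe set 1375542_at read 6.95, 7.12 and 7.02 on A16 replicate 1, technical replicate 2 and replicate 2, and 8.72, 8.99 and 8.88 on the same arrays of Tumor, a difference of 1.83. Its probe set 1396207_at read 9.23, 8.69 and 10.14 in A16 and 7.03, 6.81 and 6.85 in Tumor, a difference of -2.45, or 5.47-fold lower. The A16 arrays of the second spread widely, with replicate 2 on top, and the lowest of them lay 1.65 above the highest Tumor array. The other lower probe sets of Rdx were at -1.13 and -2.21, and the brightest was at -0.36.

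Tpm3 encodes a tropomyosin, a protein that lies along actin filaments and is made in several splice forms. Its probe set 1387617_at read 6.53, 6.33 and 6.07 in A16 and 8.58, 8.55 and 7.77 in Tumor, a difference of 1.99. Its probe set 1371184_x_at read 9.76, 9.40 and 10.17 in A16 and 7.44, 7.25 and 7.55 in Tumor, a difference of -2.36. With 12 probe sets Tpm3 had the most of the 35 genes, and 6 of them were lower, at -1.15 to -2.36, while 5 lay between -0.28 and 0.83. Of the 6, 3 share 1 source sequence and 4 carry the suffix _s_at or _x_at, which marks probes shared with other transcripts, so they are not separate measurements and may read other tropomyosin genes too.

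The other members of this group had narrower distances. Gja1, the gap junction protein connexin 43, had a bright probe set at 1.28 and another at -1.70, with the remaining one at -0.03. That remaining probe set had means of 4.47 in A16 and 4.44 in Tumor, well below the array median. Dag1, the dystroglycan that binds laminin, had 1.07 and -1.43, and its lower probe set was the least separated of all 70 extreme probe sets, with 0.14 between the nearest A16 and Tumor arrays. Sync, an intermediate filament protein, had 1.29 and -1.19 and no other probe set. Enc1, an actin-binding kelch protein, had 1.47 and -1.17, the latter -0.74 without Tumor replicate 1. The higher probe set of Enc1 lay below the array median in both groups.

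Transcription factors and cofactors made up 7 of the 35. Sox4, a high-mobility-group transcription factor, had the widest distance of all. Its probe set 1393571_at read 5.54, 5.93 and 6.11 in A16 and 7.81, 8.11 and 7.89 in Tumor, a difference of 2.07. Its probe set 1375123_at read 8.79, 7.75 and 9.10 in A16 and 6.12, 6.24 and 6.18 in Tumor, a difference of -2.37. In the second, A16 technical replicate 2 lay well under the other A16 arrays. Of the 7 probe sets of Sox4, another was higher (1.23), another lower (-1.18), and the brightest was at -0.89.

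Nfx1 encodes a zinc finger protein that binds promoters. Its probe set 1382718_at read 6.38, 6.31 and 6.38 in A16 and 8.07, 8.29 and 7.77 in Tumor, a difference of 1.68. Its probe set 1398512_at read 8.38, 8.46 and 8.57 in A16 and 6.96, 6.79 and 7.18 in Tumor, a difference of -1.49. The A16 arrays lay close together in both, while the Tumor arrays had ranges of 0.52 and 0.39. The third and brightest probe set of Nfx1 was at 0.03. Crebbp, the histone acetyltransferase CBP, had 1 probe set at 1.10, others at -1.09 and -1.17, and its brightest at 0.47. Both lower probe sets of Crebbp lay on average below the array median in A16 and in Tumor. Zfp451, a zinc finger protein, had 1.23 and -1.29 and no other probe set.

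The genes just inside the threshold were Sp1, Tcf25 and Lmo4, all in this group. Sp1, a widely expressed zinc finger factor, read 6.57, 6.32 and 6.13 in A16 and 7.11, 7.46 and 7.46 in Tumor on probe set 1392631_at, a difference of 1.00. On 1369247_at Sp1 read 7.62, 7.76 and 7.83 in A16 and 5.77, 6.005 and 6.37 in Tumor, a difference of -1.69. Tcf25 had 1.07 on 1391346_at, where A16 read 8.89, 9.20 and 9.32 and Tumor 10.12, 10.24 and 10.26. On 1392621_at Tcf25 had -1.01, with 9.81, 9.83 and 10.92 in A16 and 9.17, 9.03 and 9.33 in Tumor, so that A16 replicate 2 supplied much of the difference. Lmo4, a LIM-domain cofactor, had 1.28 on 1394630_at, where A16 read 6.18, 6.29 and 6.55 and Tumor 7.78, 7.67 and 7.42. On 1379803_at Lmo4 had -1.03, and A16 replicate 2 stood apart again (7.90, 7.91 and 9.17 in A16, 7.32, 7.30 and 7.28 in Tumor). Just outside lay Rbm5 (1.33 and -0.998), Phf20 (1.19 and -0.99) and Jun (0.99 and -1.07).

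The WNT and TGF-beta signalling genes were β-catenin, its partner and a kinase that acts on it, and a receptor-regulated SMAD. Tcf7l2 encodes the DNA-binding factor that carries β-catenin to WNT target genes. Its probe set 1392592_at read 6.39, 6.52 and 6.74 in A16 and 8.49, 8.51 and 8.26 in Tumor, a difference of 1.87. Its probe set 1394497_at read 6.44, 6.26 and 7.91 in A16 and 5.45, 5.47 and 5.51 in Tumor, a difference of -1.39. In the second, A16 replicate 2 lay far above the other A16 arrays, and the within-group range of 1.65 exceeded the difference. The other 3 probe sets of Tcf7l2 lay between -0.27 and 0.85.

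Csnk1a1, casein kinase 1 alpha, phosphorylates β-catenin ahead of its destruction. Its probe set 1389859_at read 6.04, 6.06 and 5.71 in A16 and 7.68, 7.91 and 7.92 in Tumor, a difference of 1.90. Its probe set 1381918_at read 8.70, 8.68 and 8.50 in A16 and 7.30, 7.46 and 7.48 in Tumor, a difference of -1.21. Both groups were tight in each, and the brightest probe set of Csnk1a1 was at 0.17. Ctnnb1, β-catenin itself, had 1.499 on its brightest probe set, -1.33 on another, and -0.17 and 0.55 on the rest. The one at 0.55 had means of 4.96 in A16 and 5.51 in Tumor, below the array median. Smad5 had 1.06 and -1.14, with 0.24 and 0.78 on the others.

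Of the ligands, receptors and signal carriers, Gnb1 had the widest distance. It encodes a beta subunit of heterotrimeric G proteins. Its probe set 1375705_at read 11.71, 11.84 and 11.96 in A16 and 13.25, 13.31 and 13.26 in Tumor, a difference of 1.44. Its probe set 1367731_at read 10.06, 10.28 and 10.86 in A16 and 8.77, 8.54 and 8.15 in Tumor, a difference of -1.91. Both were well above the array median on all arrays, and the third was at -0.26. Map3k20, a stress-activated kinase, had 1.13, 0.50 and -1.93. Nrp2, a co-receptor for semaphorins and VEGF, had 1.72 and -1.21. Nrg1, the ligand neuregulin 1, had 8 probe sets, of which 6 lay between -0.18 and 0.47 and the extremes at 1.43 and -1.28, the latter -0.64 without Tumor replicate 1. Spag9, a scaffold of JNK signalling, had 1.34, 0.22, -1.03 and -1.36, and the first of these was 0.63 without A16 replicate 1.

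The RNA-binding genes included Dhx36, a helicase that unwinds G-quadruplexes. Its probe set 1385871_at read 9.02, 9.19 and 8.96 in A16 and 10.36, 10.43 and 11.39 in Tumor, a difference of 1.67. Its probe set 1377906_at read 9.33, 9.09 and 8.94 in A16 and 5.96, 6.13 and 7.08 in Tumor, a difference of -2.73, or 6.61-fold lower. Tumor replicate 2 was the highest Tumor array in both. A second lower probe set of Dhx36 was at -2.18, and the other 2 lay at 0.49 and 0.64.

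Pnisr encodes a serine- and arginine-rich protein of nuclear speckles. Its probe set 1398440_at read 7.07, 7.12 and 7.38 in A16 and 9.20, 9.07 and 8.84 in Tumor, a difference of 1.85. Its probe set 1379822_at read 7.04, 6.74 and 7.07 in A16 and 5.77, 5.64 and 5.71 in Tumor, a difference of -1.25. The brightest of the 3 was at 0.04. Sltm, a SAFB-like nuclear protein, had 1.499, 0.49 and -1.52. Zcchc24, a zinc finger protein, had 1.45, 0.09 and -1.07, and the last of these was 0.29 under PLIER, the other summary of the same arrays.

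Among the mitochondrial and metabolic genes, Cs encodes citrate synthase, the entry enzyme of the citric acid cycle. Its probe set 1396453_at read 6.33, 6.16 and 6.30 in A16 and 8.20, 8.25 and 8.26 in Tumor, a difference of 1.97. Its probe set 1384201_at read 10.35, 10.45 and 11.02 in A16 and 8.99, 8.92 and 9.14 in Tumor, a difference of -1.59. The other 2 probe sets of Cs were at -0.50 and -0.95, so 3 of 4 were below 0 and the fourth stood alone. Acot2, a mitochondrial acyl-CoA thioesterase, read 7.06, 7.17 and 7.80 in A16 and 9.40, 9.65 and 9.77 in Tumor on 1384115_at, a difference of 2.26. On 1388210_at Acot2 read 6.10, 5.62 and 6.54 in A16 and 4.95, 4.89 and 5.25 in Tumor, a difference of -1.06. That second probe set lay below the array median in both groups, and the brightest was at 0.46. Hspa9, the mitochondrial chaperone mortalin, had 1.05 on 1 probe set and -0.02, -0.74 and -1.23 on the others, and C8h11orf54 had 1.22 and -1.79.

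Of the protein turnover and trafficking genes, Nedd4, a HECT-type ubiquitin ligase, had the widest distance. Its probe set 1384326_at read 5.69, 6.28 and 6.51 in A16 and 7.80, 7.96 and 7.65 in Tumor, a difference of 1.64. Its probe set 1395157_at read 11.63, 11.38 and 12.04 in A16 and 8.81, 8.87 and 9.57 in Tumor, a difference of -2.60, or 6.06-fold lower. The other 4 probe sets of Nedd4 ran from -0.03, its brightest, to -1.27, so the higher probe set was again alone on its side. Ecpas, a scaffold of the proteasome, had 1.38 and -1.40, and its other 4 lay between -0.97 and 0.65. Usp42, a deubiquitinase, had 1.44 and -1.37. Capn5, a calpain protease, had 1.24 and -1.06, and the sorting nexin Snx18 had 1.04 and -1.11.

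**Figure D2:**
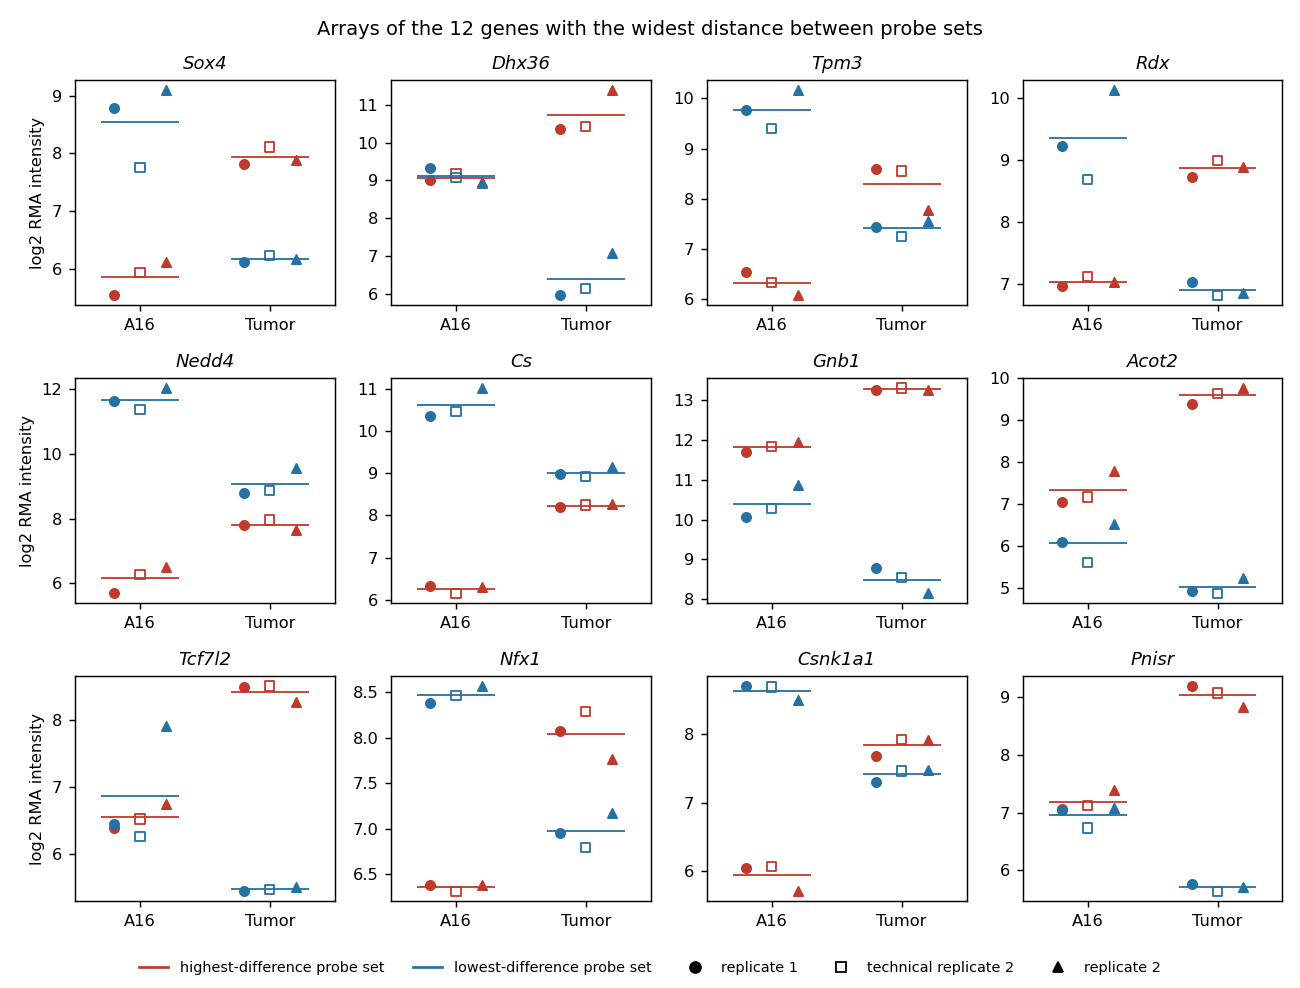
Log2 RMA intensity (vertical axis) on the 3 A16 and 3 Tumor arrays (horizontal axis) of the highest-difference (red) and lowest-difference (blue) probe set of the 12 genes with the widest distance; points are arrays, open squares technical replicate 2, triangles replicate 2, and lines group means. Levels of different probe sets are not comparable, only the direction of each from A16 to Tumor. That no A16 array overlaps the Tumor arrays in these 24 probe sets was a condition of the choice.

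The 2 extremes of a gene differed in how tightly the arrays of a group lay together. The arrays compared here are those that chose the probe sets. A high A16 array enlarges a negative difference and shrinks a positive one, so nothing is read from contrasts between the 2 sides. In A16 the median SD over 3 arrays was 0.17 for the 35 highest-difference probe sets and 0.36 for the 35 lowest-difference ones. For 64 of the 70 probe sets the difference was larger than the range of the arrays within either group. The other 6 were lowest-difference probe sets, those of C8h11orf54, Capn5, Dag1, Lmo4, Tcf25 and Tcf7l2, with A16 ranges of 1.11 to 1.92. A16 replicate 2 was the highest A16 array in 30 of the 35 lowest-difference probe sets (85.7%) and in 17 of the 35 highest-difference ones (48.6%). The same array was highest in 65.7% of all 1669 lower probe sets with 1 gene symbol, in 35.2% of all 1097 higher ones and in 31.0% of all 31042 probe sets tested. Its median excess over the other 2 A16 arrays was 0.54 for the lowest-difference and 0.10 for the highest-difference probe sets. Over all lower and all higher probe sets with 1 gene symbol that excess was 0.26 and -0.04. Tumor replicate 2 was the highest Tumor array in 26 of the 35 lowest-difference and 10 of the 35 highest-difference probe sets, with a median excess of 0.19 and -0.07. Without A16 replicate 1, which leaves A16 replicate 2 alone, the lowest differences of C8h11orf54, Capn5, Dag1, Lmo4, Tcf25 and Tcf7l2 were larger in size by over 1.5 times, at -3.00, -1.74, -2.50, -1.87, -1.74 and -2.43. Without A16 replicate 2, those of C8h11orf54, Capn5, Dag1, Lmo4, Tcf25 and Tcf7l2 were -1.18, -0.73, -0.89, -0.61, -0.64 and -0.88. Without A16 replicate 2, 25 genes qualified, 23 of them among the 35.

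The control probe sets that read 1 transcript at several places moved with the groups as well. The 3′ probe set of beta-actin exceeded the 5′ one by 0.69, 0.71 and 0.64 on A16 replicate 1, technical replicate 2 and replicate 2, and by 2.37, 2.35 and 2.25 on the same arrays of Tumor. Within this 1 transcript the Tumor minus A16 difference was therefore -1.18 at the 3′ end, -2.45 in the middle and -2.82 at the 5′ end. For Gapdh the 3′ excess was -0.05, -0.05 and 0.00 in A16 and 0.26, 0.25 and 0.33 in Tumor. For hexokinase it was 0.95, 1.39 and 0.84 in A16 and 1.83, 2.30 and 1.92 in Tumor. A16 and Tumor arrays did not overlap in any of the 3 excesses. A16 replicate 2 had the smallest excess of the A16 arrays for beta-actin and hexokinase but the largest for Gapdh. The poly(A) spikes, transcripts added before labelling, averaged 7.69 in A16 and 4.87 in Tumor. The part of the 3′ excess and of the labelling in the differences of the 35 genes was not tested, and labelling and group cannot be told apart.

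**Figure D3:**
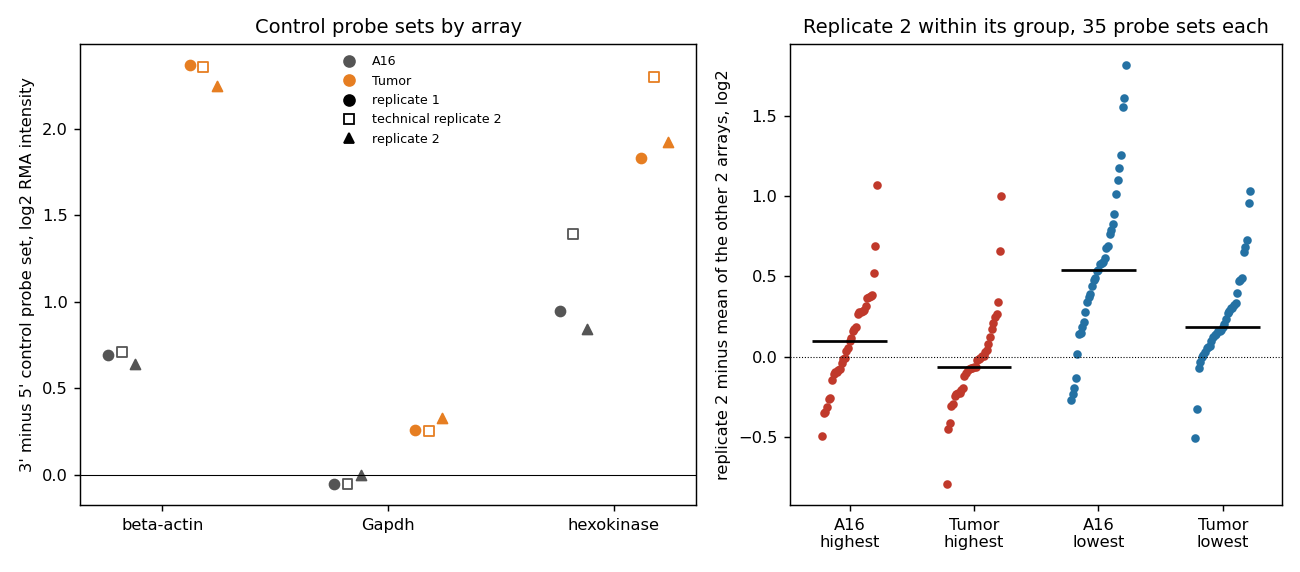
Left, log2 RMA intensity of the 3′ minus the 5′ control probe set (vertical axis) of beta-actin, Gapdh and hexokinase (horizontal axis) on each array, grey for A16 and orange for Tumor; right, replicate 2 minus the mean of the other 2 arrays of its group (log2, vertical axis) for the highest- and lowest-difference probe sets of the 35 genes, with lines at the medians. Tumor arrays lie above A16 arrays for each control, and A16 replicate 2 lies above the other A16 arrays in 30 of the 35 lowest-difference probe sets.

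PLIER gave the same direction as RMA in all 35 highest-difference probe sets and in 34 of the 35 lowest-difference ones. The exception was Zcchc24. A PLIER difference of 1 or more was found in 33 of the former and of -1 or less in 33 of the latter. Cs moved the most on the upper side, from 1.97 to 3.04, and Hspa9 dropped from 1.05 to 0.49. The PLIER values were made from the same 6 scans, so they are a second summary and not further samples.

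**Figure D4:**
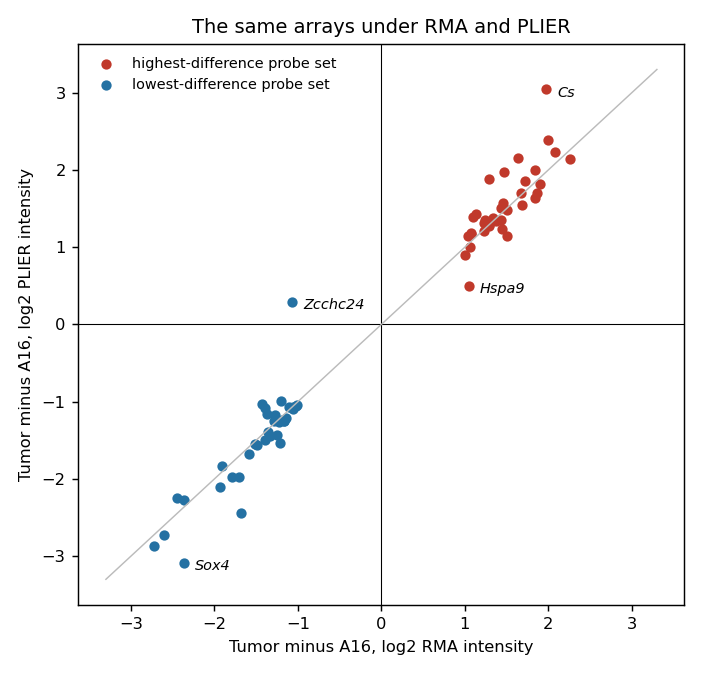
Tumor minus A16 difference under PLIER (vertical axis, log2) against that under RMA (horizontal axis, log2) for the highest-difference (red) and lowest-difference (blue) probe sets of the 35 genes; the grey line marks equal values. Zcchc24 is the only lowest-difference probe set above 0 under PLIER, at 0.29.

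Some further features of the genes and their probe sets were counted. The share of genes that qualified was 0.163% of those with 2 probe sets, 0.965% of those with 3, 3.45% of those with 4 and 7.97% of those with at least 5, so genes with more probe sets, which have more chances, qualified more often. In the RefSeq table of the GRCr8 assembly all 35 were found, with a median of 4 listed transcripts, and 32 (91.4%) had 2 or more. All genes with 2 or more probe sets also had a median of 4, and 80.3% had 2 or more. These 2 shares are not matched for the number of probe sets, with a median of 4 in the 35 genes and 2 in all such genes. The 35 genes lay on 15 chromosomes, with at most 6 on any of them. The source sequence was an expressed sequence tag for 27 of the 35 highest-difference and 26 of the 35 lowest-difference probe sets, against 81.4% of all probe sets of these multi-probe-set genes. A curated RefSeq mRNA or another GenBank entry stood behind 2 of the former and 9 of the latter. Among all higher probe sets of these genes 7.20% had the first kind of source and 3.84% the second, and among all lower ones 11.5% and 8.77%. No source was listed for 6 of the highest-difference probe sets (17.1%), against 6.08% of all higher probe sets and 3.08% of all. In A16, 13 of the highest-difference probe sets (37.1%) lay on average below the array median, against 41.9% of all higher and 38.3% of all probe sets of these multi-probe-set genes. In Tumor, 18 of the lowest-difference ones (51.4%) did, against 37.2% of all lower and 41.0% of all probe sets. The group means are the terms of the difference that chose these probe sets, so nothing is read from the shares below the median.

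Genes that choose splice sites and transcript ends were examined next to these, because they act on which transcript of a gene is made. Of 26 listed genes of mRNA 3′ end processing 25 were measured, with 1 higher, 0 lower and 24 not called by limma at an adjusted p under 0.05 and 2-fold, and with 4 higher and 5 lower at that adjusted p with any fold. Of 53 listed splicing regulators 48 were measured, with 1 higher, 1 lower and 46 not called, and with 8 higher and 12 lower at any fold. Over all 14217 genes, 5.45% were higher and 5.44% lower at 2-fold, and 17.4% and 16.6% at any fold. The median log2 differences were -0.08 and -0.02 for the lists and 0.03 for all genes. These counts rest on the brightest probe set of each gene. Some genes not called had a dimmer probe set past 2-fold at an adjusted p under 0.05 by limma. In the first list these were Rbbp6 (1.43), Cstf1 (-1.25), Papolg (-1.20) and Wdr33 (-2.05). In the second they were Srsf10 (1.90), Hnrnpa1 (1.18), Mbnl2 (-1.04), Sf3b1 (-1.24 and -1.12), U2af2 (-1.70), Hnrnpa2b1 (-1.82) and Tardbp (-1.89). Over all probe sets 5.51% were higher and 6.39% lower on these terms.

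Pcf11, which helps cut the transcript and end transcription, was the gene of the first list that was called higher. It read 7.49, 7.66 and 7.95 in A16 and 9.35, 9.09 and 8.99 in Tumor, a log2 difference of 1.35 ± 0.16 (SE, n = 2 replicates per group, adjusted p 0.00144 by limma), and its dimmer probe set was at -0.35 ± 0.14 (adjusted p 0.117 by limma). Srsf3, a serine- and arginine-rich splicing factor, rose from 4.50, 4.51 and 4.47 to 6.06, 6.34 and 6.36, or by 1.79 ± 0.12 (adjusted p 0.00013 by limma), although its probe set lay below the array median on all 6 arrays. Rbfox2, a regulator of alternative exons, fell from 9.37, 9.27 and 9.003 to 8.04, 8.09 and 8.21, or by 1.02 ± 0.14 on the log2 scale (adjusted p 0.00261 by limma). Its dimmer probe set was at -0.07 ± 0.15. The call of Rbfox2 was lost without A16 replicate 1 (-0.86) and without Tumor replicate 1 (-0.95), where the difference was under 2-fold. When a gene's probe sets were averaged, Pcf11 was at 0.50 and Rbfox2 at -0.55, and neither was called. None of these 3 is one of the 35 genes.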

How the data were processed

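The authors deposited each array as linear intensity per probe set, summarised once by RMA and once by PLIER in Avadis; the 12 records are 6 arrays. No version of RMA or PLIER is stated. The design had taken RMA as log2 already, but the deposited RMA values were linear, so log2 was taken of both summaries here. PLIER values had a minimum of 16, so no offset was added. Of 31099 probe sets 57 controls were set aside. The platform annotation gave 1 symbol to 20826, several to 436 and none to 9780. The members, role groups and gene lists were chosen with earlier results of these data known.

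Genes qualified by the mean of 3 arrays per group. For limma 3.58.1 in R 4.3.3 (two-sided, Benjamini-Hochberg over 31042 probe sets), technical replicate 2 was averaged with replicate 1, so n = 2 per group; the brightest probe set stood for a gene. The fit was tested on simulated data. The number of arrays limits the precision. Values on every array were given for the 12 genes with the widest distance and for the 3 just inside the threshold; other members are given by their extreme differences. Of the lists, up to 6 called genes were named, and also the uncalled genes with a dimmer probe set past 2-fold. Markers and single values chosen to describe an array or a summary were named after their values were seen. Alternatives were PLIER, other thresholds and filters, centring, left-out arrays, a replicate block and the plain test the study names.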

Additional observations from a re-analysis of the deposited data

How the results depend on the processing

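The number of genes with oppositely moving probe sets was 35. It stayed within 1.5 times that number with technical replicate 2 averaged or left out (40 genes each), with no condition on overlap (36), and with the filter at the 30th percentile, centring on array medians, or _s_at and _x_at probe sets left out (35 each). PLIER gave 59 genes, 31 of them among the 35, without Hspa9, Nrp2, Sp1 and Zcchc24. A minimum log2 difference of 0.5 gave 231 genes, 1.5 gave 6 (Sox4, Dhx36, Tpm3, Rdx, Nedd4 and Cs) and 2 gave 1 (Sox4). Leaving out 1 replicate gave 25 to 59 genes, with 59 without A16 replicate 1 (31 of the 35), 25 without A16 replicate 2 (23), 28 without Tumor replicate 1 (23) and 39 without Tumor replicate 2 (34). Dag1, Smad5, Spag9 and Tcf25 were lost without A16 replicate 1, and Sp1 without Tumor replicate 2. Acot2, Capn5, Crebbp, Dag1, Hspa9, Nrp2, Snx18, Tcf25 and Zcchc24 were lost without A16 replicate 2 and also without Tumor replicate 1. Lmo4, Sp1 and Tcf7l2 were lost only in the former of these settings, and Enc1, Nrg1 and Smad5 only in the latter. Without replicate 1 (its technical replicate 2 also left out) a group has 1 array. The cause of the other changes was not tested. Of the 70 extreme probe sets only the lowest-difference one of Zcchc24 changed sign, to 0.29 under PLIER. Leaving out or averaging arrays could not change a sign, because the choice required groups that do not overlap. Centring could hardly do so, since the array medians were nearly equal. The unchanged signs under these settings therefore say nothing about the genes.

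Of the 73 measured 3′ end processing and splicing genes limma called 3 by their brightest probe set, Pcf11, Srsf3 and Rbfox2. PLIER called 7 and the 3 arrays taken separately 4, these 3 among them. The filter at the 30th percentile called 2, since it removed Srsf3. The mean of all probe sets also called 2, Srsf3 and, lower, Wdr33, and lost Pcf11 and Rbfox2. Leaving out 1 replicate gave 3 to 6 (6 without A16 replicate 1 and without Tumor replicate 2), and Rbfox2 was not called without A16 replicate 1 or without Tumor replicate 1. The replicate block called the same 3. Replicates 1 and 2 share only a number between the groups (the deviations of replicate 1 correlated at 0.12 over probe sets), so the block is no sign of pairing. The plain test the study names found 3 at its own threshold and 0 after Benjamini-Hochberg. Many extreme probe sets lay near or below the array median in 1 group, or in both (Acot2, Crebbp and Enc1), where a difference may be understated.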
